A study of Rattus with 4 samples.

Results

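The SR-related nuclear speckle protein genes examined here are Srrm1, Srrm2, Son, Pnn, Acin1, Rnps1, Srrt, Arglu1, Akap8l and Ccdc9. They were taken by gene name from the deposited lists of RBM25-bound positions, in which every peak carries 1 gene name or none. These 10 genes stand among 1914 genes with a peak in either list. They held 86 of the 2696 peaks of IP 1 (3.19%) and 130 of the 8108 peaks of IP 2 (1.60%). All 10 names matched a symbol of the RefSeq name table.

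The peaks come from H9C2 cells, a rat myoblast line derived from embryonic heart, in which RNA bound to the splicing factor RBM25 was cross-linked by ultraviolet light, immunoprecipitated and sequenced. Among the 4 samples, all of the same line, 2 are immunoprecipitates (IP) of RBM25 and 2 are inputs. A peak list of each IP was used, called IP 1 and IP 2 here by its replicate number, and the inputs were not analysed here. The labels give no other treatment and no antibody for these samples, and they do not say whether RBM25 was overexpressed in them. They also do not say whether the replicates were separate cultures. A peak is 1 or more adjoining bins of 50 nt on 1 strand, with a tag number that is the mean per bin. Where a peak is given 2 tag numbers, they are those of IP 1 and IP 2 in that order. The tallest recurrent peak of a gene is the one with the most tags in IP 1, and can be another by IP 2 tags. The lowest tag number called was 19 in IP 1 and 20 in IP 2, and library depth is unknown. Of 8 myoblast and muscle genes, Tnnt2 had a peak in IP 1, and Tnnt2, Vim and Acta2 had one in IP 2. Des, Myod1 and Myog had none, but a bound position is not an expression level.

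Nuclear speckles are bodies between chromatin regions where splicing factors gather. Many of their proteins carry stretches of alternating arginine and serine, called RS domains, that bind other splicing factors. Much of what follows on roles is known from human cells. SRRM2 and SON form the core of speckles, and SRRM1 is a splicing coactivator that works with SRRM2. RNPS1 joins the exon junction complex, the protein mark left on spliced RNA, through partner complexes built on ACIN1 or on pinin (PNN). SRRT, also called ARS2, links the nuclear cap-binding complex to RNA processing and decay. RBM25 itself associates with U1 snRNP, which recognises 5' splice sites.

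Of the 10 genes, 8 had peaks in both lists: Srrm2, Son, Pnn, Acin1, Srrt, Arglu1, Akap8l and Ccdc9. Srrm1 and Rnps1 had no peak in IP 1. The 8 genes also held at least 1 recurrent peak, meaning an IP 1 peak that shares a bin with an IP 2 peak on the same strand. Among all genes with a peak in either list, 34.1% held a recurrent peak. Each of the 8 held a recurrent peak on the sense strand, which 23.9% of all such genes did. These genes were chosen with earlier results from these lists known, so their counts are a description and were not tested.

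In IP 1, 72 of the 86 speckle gene peaks recurred (83.7%, 95% Wilson interval 74.5 to 90.0), beside 61.0% of all peaks of that list. Counted from IP 2, 71 of 130 recurred (54.6%, 46.0 to 62.9), beside 20.3% of all peaks. The intervals cover counting error only, and peaks of 1 gene are not independent. Peak length moved with this share: 18.6% of the speckle gene peaks of IP 1 were longer than 1 bin, beside 5.04% of all peaks, and a longer peak can overlap more easily. The setting of 1-bin peaks alone, here and below, cut both lists. With it, 46 of 70 speckle gene peaks of IP 1 recurred (65.7%), beside 55.5% of all 1-bin peaks. That setting also drops longer IP 2 peaks, which were 19.2% of speckle gene peaks of IP 2, beside 7.04% of all its peaks. All 14 speckle gene peaks of IP 1 without a counterpart in the main count were themselves 1 bin long. With identical start and end required, 51 of 86 did (59.3%), beside 53.9% of all peaks.

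Tag numbers were also high in these genes. The median speckle gene peak had 32 tags in IP 1, with a range of 19 to 108, and all peaks of the list had a median of 24. In IP 2 the speckle gene median was 36.5, with a range of 20 to 155, and the median of all peaks was 26. Above 39 tags, the highest 10% of IP 1, lay 24 speckle gene peaks (27.9%), beside 9.87% of all peaks. Above 47 tags in IP 2 lay 42 (32.3%), beside 9.84% of all peaks. The part of peak height in recurrence was described by tag class. Below 25 tags, 14 of 22 speckle gene peaks of IP 1 recurred (63.6%, 43.0 to 80.3), beside 56.2% of all peaks in that class. From 25 to below 35 tags, 29 of 31 did (93.5%, 79.3 to 98.2), beside 69.9%. At 35 tags or more, 29 of 33 did (87.9%, 72.7 to 95.2), beside 60.0%. In the lowest class the interval of the speckle genes held the value of all peaks, and in the upper classes it did not. Peaks of 1 gene are not independent and the genes were chosen with earlier results known, so this is a description and not a test.

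**Figure D1:**
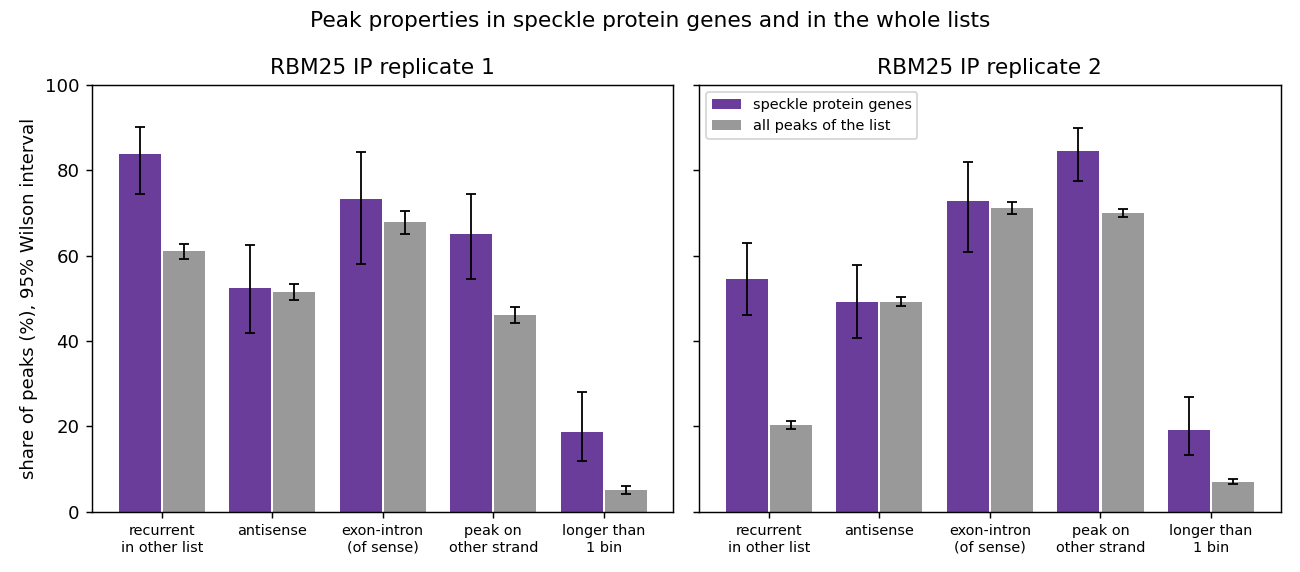
Bars give the share of peaks (%) with each property in speckle protein genes (purple, left of each pair) and in all peaks of the list (grey), for IP 1 (left panel) and IP 2 (right panel); lines are 95% Wilson intervals over peaks. Recurrence was 83.7% beside 61.0% in IP 1 and 54.6% beside 20.3% in IP 2, while the antisense shares nearly coincided.

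Among the genes of the speckle core, Srrm2 had 17 peaks in IP 1 and 24 in IP 2, over 20550 nt of chromosome 10 (build mRatBN7.2, as for all positions here). Of the 17, 10 recurred, 4 sense and 6 antisense. Its tallest recurrent sense peak, at 12834150 to 12834200, had 36 tags in IP 1 and 58 in IP 2. By the deposited annotation, 30% of that bin was coding sequence and 70% intron. The tallest recurrent antisense peak of Srrm2 by IP 1 tags, at 12830850 to 12830900, had 49 and 30 tags, and that at 12834150 to 12834200 had 42 and 62. The ratio of IP 2 to IP 1 tags over the 10 pairs was above 1 in 5, so neither list was consistently the higher at this gene.

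Srrm2 also held tall peaks called in 1 list alone. In IP 1 the tallest was a sense peak wholly in the 5' UTR, at 12827300 to 12827350, with 61 tags. The nearest IP 2 peak on that strand lay 4600 nt away. In IP 2 the bin at 12833850 to 12833900 had 119 tags sense, where 50% of it was coding sequence, and 134 antisense. Neither strand of that bin was called in IP 1, whose lowest called peak had 19 tags. A longer IP 2 peak at 12833400 to 12833500 had 72 tags sense and 79.5 antisense, again with no IP 1 call. When only the better part of the lists by deposited p-value was kept, with 1-bin peaks alone, or with identical ends, the recurrent peaks of Srrm2 numbered 6 in place of 10.

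Son had 5 peaks in IP 1 and 8 in IP 2 on chromosome 11, and 4 of the 5 recurred. Both recurrent positions were occupied on both strands. At 30895650 to 30895700 the sense peak had 32 tags in IP 1 and 37 in IP 2, and the antisense peak had 27 and 30. At 30898050 to 30898100 the sense peak had 24 and 43 tags, and the antisense peak 27 and 57. Coding sequence made up 66% of the first bin and 48% of the second, with intron in the remainder. The other IP 1 peak, antisense at 30899450 to 30899500, had 19 tags, the lowest number called in that list. In IP 2 the Son peaks reached as far as 30921400, with 20 tags at each of 2 sense peaks that had no counterpart.

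Srrm1 had 1 called bin, in IP 2 alone, at chromosome 5, 147583850 to 147583900. The bin had 23 tags sense and 21 antisense, close to the lowest number called, and 10% of the bin was coding sequence. The lowest number called in IP 1 was 19, and how peaks were called is not known. A missing Srrm1 peak there thus does not show that signal was missing.

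Pinin and acinus, the alternative partners of RNPS1, are encoded by Pnn and Acin1. Pnn had 10 peaks in IP 1 and 11 in IP 2 within 5450 nt of chromosome 6, and 9 of the 10 recurred. The tallest recurrent sense peak, at 76758900 to 76758950, had 55 tags in IP 1 and 66 in IP 2, in a bin that was 78% coding and 22% intronic. The tallest recurrent antisense peak by IP 1 tags, at 76759300 to 76759350, had 52 and 60 tags, and that at 76758900 to 76759000 had 34 and 65. All 9 recurrent Pnn peaks had more tags in IP 2, with a median ratio of 1.42. All 6 antisense peaks of IP 1 recurred, and the single peak without a counterpart was a sense peak partly in the 5' UTR, at 76758100 to 76758150, with 31 tags. An IP 2 sense peak of 29 tags began 50 nt from its end.

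Among the 10 genes, Acin1 differed most between the lists in its number of peaks, with 6 in IP 1 and 22 in IP 2 on chromosome 15. Of the 6, 5 recurred, and these met 5 of the 22. At 28105950 to 28106000 all strands and lists had a peak: the sense peak had 31 tags in IP 1 and 40 in IP 2, and the antisense peak had 42 and 50. That bin was 88% coding sequence and 12% intron. The tallest recurrent sense peak by IP 1 tags, at 28103900 to 28104000, had 36.5 tags in IP 1 and 25.25 in the longer IP 2 peak over it. In IP 2 alone, the bin at 28112250 to 28112300 had 48 tags sense and 53 antisense, and that at 28127450 to 28127500 had 46 sense and 49 antisense. With the better part of the lists by p-value, 2 of the Acin1 peaks recurred. Of the 12 sense peaks of IP 2, 10 held both coding sequence and intron.

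Rnps1 had a single peak in all, antisense in IP 2 at chromosome 10, 13452050 to 13452100, with 21 tags. It had no sense peak in either list. Ccdc9 encodes a protein found with the exon junction complex in human cells, and unlike Rnps1 its gene had many peaks in both lists.

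Ccdc9 had 16 peaks in IP 1 and 24 in IP 2 over the same 12350 nt of chromosome 1. They were divided evenly between the strands, 8 and 8 in IP 1 and 12 and 12 in IP 2. Of the 16, 14 recurred, 7 on each strand. The tallest recurrent sense peak, at 76989300 to 76989350 and wholly coding, had 43 tags in IP 1 and 29 in IP 2. By IP 2 tags the first recurrent sense peak was that at 76980850 to 76980900, with 33 tags in IP 1 and 60 in IP 2. The tallest recurrent antisense peak by IP 1 tags, at 76983200 to 76983250, had 59 and 65 tags, and that at 76985350 to 76985450 had 45 and 75. Tags were higher in IP 2 in 9 of the 14 pairs. The tallest peak of any speckle gene was a Ccdc9 sense peak of IP 2 at 76981050 to 76981100, with 155 tags and 94% of the bin in coding sequence. The antisense peak in that bin had 117 tags, and IP 1 had no call on either strand. Near the other end of the span, a recurrent sense peak at 76989550 to 76989600, with 62% of the bin in the 5' UTR, had 36 tags in IP 1 and 54 in IP 2. With the better part of the lists by p-value, 8 Ccdc9 peaks recurred.

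**Figure D2:**
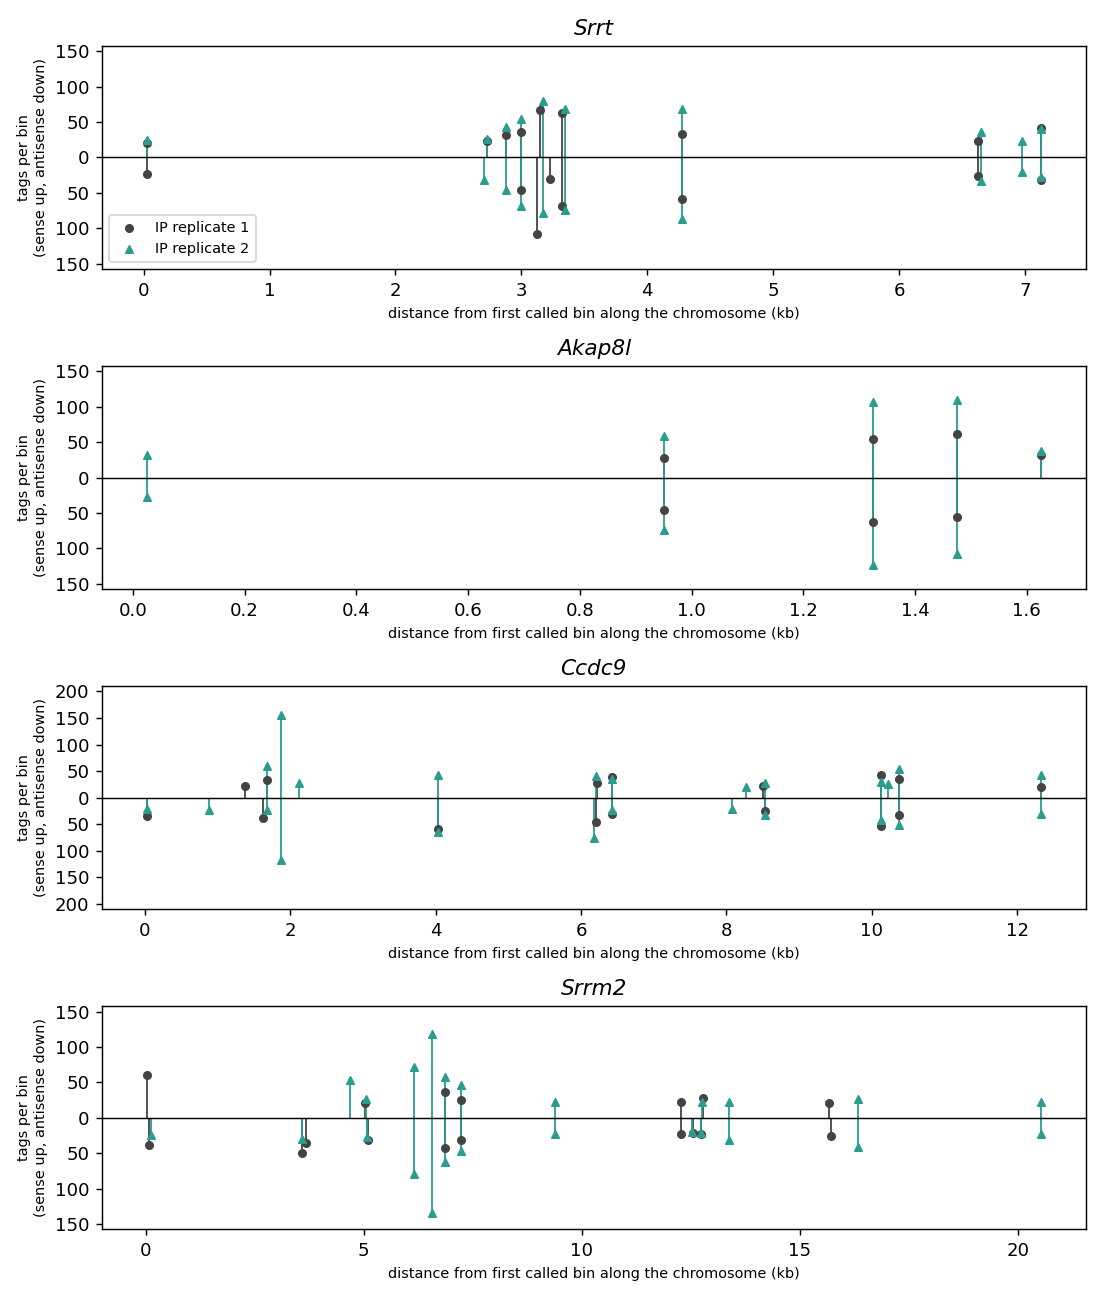
Each marker is a peak of Srrt, Akap8l, Ccdc9 or Srrm2, placed by the distance of its centre from the first called bin of the gene (kb along the chromosome), with its tags per bin upward for sense and downward for antisense peaks; dark circles are IP 1 and green triangles IP 2. Srrt and Akap8l peaks of both lists stand in the same few clusters, while Ccdc9 and Srrm2 each have an IP 2 position with 117 tags or more on each strand with no IP 1 peak.

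Srrt had the most recurrent IP 1 peaks of the speckle genes, though not with 1-bin peaks alone or identical ends, where Ccdc9 had the most. It had 17 peaks in IP 1 and 19 in IP 2 over the same 7150 nt of chromosome 12, and 16 of the 17 recurred, of which a pair met the same IP 2 peak. All 9 sense peaks of IP 1 recurred. Within 1000 nt from 19400250, 11 bins were called, the most in any such window of the 10 genes. The tallest recurrent sense peak, at 19400700 to 19400800, had 67 tags in IP 1 and 79.7 in IP 2, with 57% coding sequence and 43% intron. The tallest recurrent antisense peak, at 19400700 to 19400750, had 108 tags in IP 1, the highest of any speckle gene in that list, and 78.7 in the longer IP 2 peak. Outside the cluster, the bin at 19401850 to 19401900 had 33 and 69 tags sense and 59 and 87 antisense. The single IP 1 peak without a counterpart was antisense at 19397600 to 19397650, with 24 tags. In IP 2, 10 of the 19 Srrt peaks were longer than 1 bin, and with 1-bin peaks alone 6 recurred in Srrt and 10 in Ccdc9, and with identical ends 8 in Srrt and 11 in Ccdc9.

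Arglu1, an arginine- and glutamate-rich splicing modulator, had 8 peaks in IP 1 and 10 in IP 2 on chromosome 16, and 7 of the 8 recurred. Its tallest recurrent sense peak, at 80759600 to 80759650, had 59 tags in IP 1 and 103 in IP 2. The antisense strand of that bin was called in IP 2 alone, with 125 tags. In Arglu1, 2 other bins were called on both strands in both lists. At 80776450 to 80776500 the sense peak had 32 tags in IP 1 and 67 in IP 2, and the antisense peak 35 and 77. The sense bin there was 18% coding sequence and 82% intron, the same split as at the tallest recurrent sense peak. At 80762100 to 80762150 IP 1 had 25 tags sense and 33 antisense, and the longer IP 2 peaks over it had 40.5 and 45. Close to the start of the gene, a coding peak at 80753700 to 80753800 had 50.5 tags in IP 1 and met an IP 2 peak of 37. A 5' UTR peak of 20 tags in IP 1 had no counterpart. With 1-bin peaks alone, or with identical ends, 3 Arglu1 peaks recurred.

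Akap8l encodes a nuclear matrix protein of the A-kinase anchor family. All 7 of its IP 1 peaks recurred, within 750 nt of chromosome 7. At 11347850 to 11347900 the sense peak, 84% coding sequence and 16% intron, had 61 tags in IP 1 and 109 in IP 2, and the antisense peak 56 and 108. At 11347700 to 11347750 the sense peak had 55 and 107 tags. At 11347300 to 11347400 the sense peak had 27.5 and 58.5 tags and the antisense peak 45.5 and 74.5. Tags were higher in IP 2 at all 7 pairs, with a median ratio of 1.93, the highest among the speckle genes. The sense peak at 11348000 to 11348050, 72% intron, had 32 and 37 tags and no antisense partner. Replicate 2 added 1 further bin, wholly coding, at 11346400 to 11346450, with 32 tags sense and 28 antisense.

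**Figure D3:**
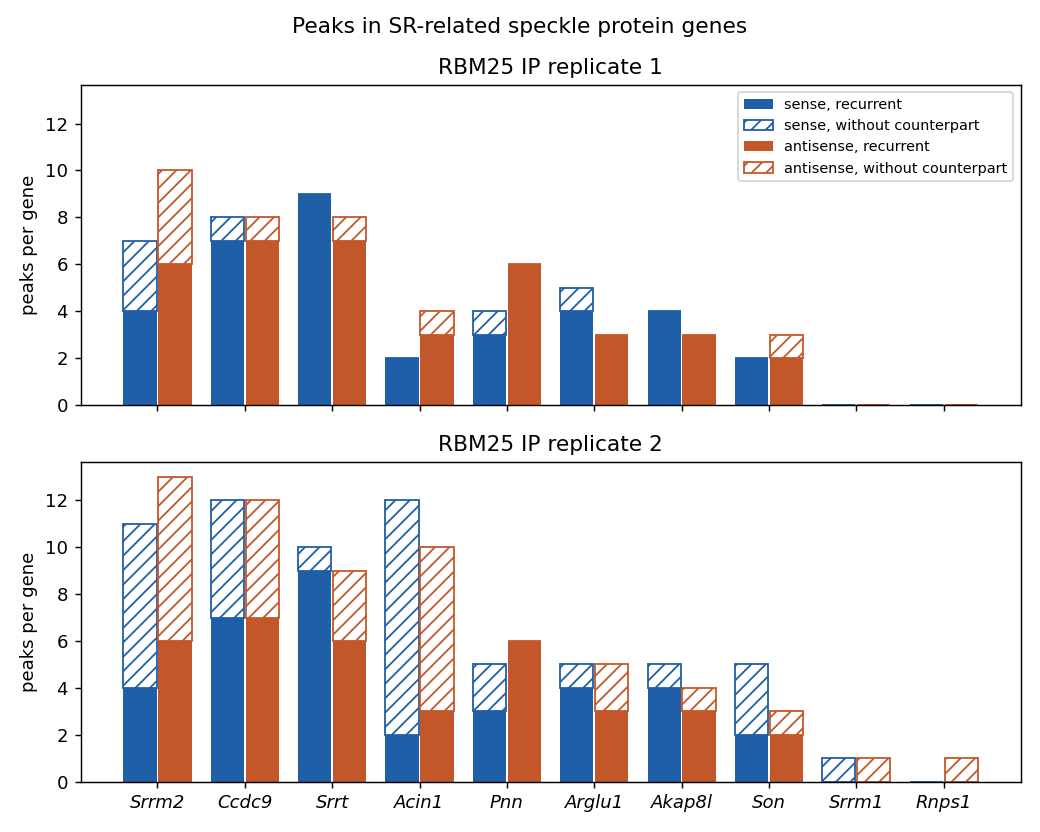
Bars give the number of peaks per gene in IP 1 (upper panel) and IP 2 (lower panel), sense in blue and antisense in orange; filled parts are recurrent peaks and hatched parts have no counterpart in the other list. Srrt, Akap8l and Pnn are nearly filled in IP 1, Acin1 has 6 peaks there and 22 in IP 2, and Srrm1 and Rnps1 are empty in IP 1.

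Over the genes together, antisense peaks made up 45 of 86 in IP 1 (52.3%, 41.9 to 62.6), beside 51.6% of all peaks, and 64 of 130 in IP 2 (49.2%, 40.8 to 57.7), beside 49.3%. The share of antisense peaks in speckle genes was thus close to that of the lists. Peaks with a partner on the other strand in a shared bin were 56 of 86 in IP 1 (65.1%, 54.6 to 74.3), beside 46.2% of all peaks. In IP 2 they were 110 of 130 (84.6%, 77.4 to 89.8), beside 70.0%. A partner is called only where both strands reach the lowest tag number. The share moved with tag number: below 25 tags in IP 1, 9 of 22 speckle gene peaks had a partner (40.9%, 23.3 to 61.3), beside 34.0% of all peaks in that class. From 25 to below 35 tags it was 22 of 31 (71.0%, 53.4 to 83.9), beside 57.5%. At 35 tags or more it was 25 of 33 (75.8%, 59.0 to 87.2), beside 66.4%. In IP 2 it was 16 of 29 below 25 tags (55.2%, 37.5 to 71.6), beside 54.1%, 27 of 31 from 25 to below 35 (87.1%, 71.1 to 94.9), beside 78.6%, and 67 of 70 at 35 tags or more (95.7%, 88.1 to 98.5), beside 84.1%. Within a class the speckle genes stood closer to the list than over all classes.

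Where both strands formed a 1-bin peak in the same bin, their tags were close. A bin called on 1 strand alone is left out of these pairs, so the values do not cover bins with an uncalled strand. The antisense peak held a median of 53.0% of the tags of a pair in IP 1, over 20 speckle gene pairs with a range of 43.5 to 65.0%, and 51.1% over 531 pairs of all genes. In IP 2 the median was 51.7% over 40 pairs, with a range of 27.7 to 60.3%, and 51.1% over 2391 pairs of all genes. The antisense peak was the higher in 14 of 20 pairs of IP 1 (70.0%), beside 54.0% of the pairs of all genes, and in 25 of 40 of IP 2 (62.5%), beside 57.3%. Across pairs, Spearman's rho between sense and antisense tags was 0.746 in IP 1 and 0.810 in IP 2, beside 0.514 and 0.755 over all genes. These are descriptions across bins that share a library and a gene. The widest departure among these speckle gene pairs was in Ccdc9 at 76980850 to 76980900, where IP 2 had 60 tags sense and 23 antisense. Sense and antisense peaks of such a bin are both assigned to the gene by name. Whether antisense tags come from antisense RNA was not tested, and whether another transcript lies on the opposite strand was not examined.

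**Figure D4:**
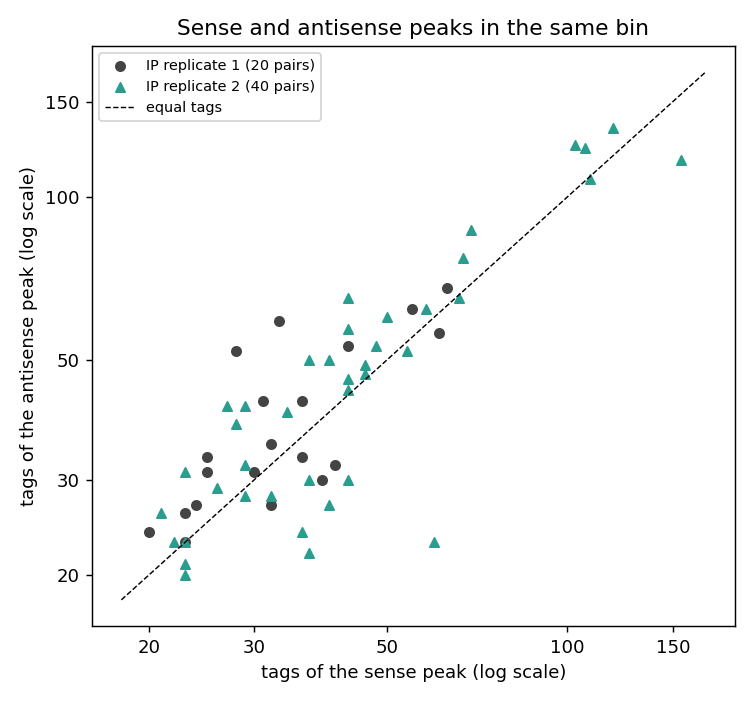
Each point is a bin of a speckle protein gene with a 1-bin peak on both strands of the same list; the horizontal axis gives tags of the sense peak and the vertical axis tags of the antisense peak, both on log scales, with a dashed line at equal tags. The 20 pairs of IP 1 (circles) and 40 pairs of IP 2 (triangles) lie along the line, with a median antisense share of 53.0% and 51.7%.

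Some bins were called on both strands in both lists, the most calls that a bin could have here. The strands of 1 library are not replicates, so a call on both is not a further repeat. The speckle genes had 28 such bins among 114 called bins (24.6%), beside 6.18% of the bins of all genes. They lay in 8 of the 10 genes, and 13.7% of all genes with a peak had such a bin. Srrt had 7, Ccdc9 6, Akap8l 4, Srrm2 and Pnn 3 each, Son and Arglu1 2 each, and Acin1 1. Adjoining bins of a longer peak count separately in these numbers, and tag number moves with them as above.

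Most sense peaks of the speckle genes held both exon and intron sequence by the deposited annotation, and are called boundary peaks here. In IP 1, 30 of 41 did so (73.2%, 58.1 to 84.3), beside 67.8% of all sense peaks, and in IP 2 48 of 66 (72.7%, 61.0 to 82.0), beside 71.2%. These shares lay within counting error of the lists. No sense peak of these genes lay wholly within an intron, 0 of 41 in IP 1 (upper limit 8.57%) and 0 of 66 in IP 2 (upper limit 5.50%). Over all sense peaks the shares were 4.00% and 5.07%, below these limits. These counts thus do not set the genes apart from the lists, and no test was run. Wholly coding peaks were 8 of 41 in IP 1 (19.5%), beside 16.8% of all sense peaks, and 17 of 66 in IP 2 (25.8%), beside 17.0%. The 5' UTR was touched by 5 sense peaks in IP 1 (12.2%, beside 11.0% over the list), in Srrm2, Pnn, Arglu1 and Ccdc9, and by 2 in IP 2 (3.03%, beside 7.25%), both in Ccdc9.

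All 30 boundary peaks of IP 1 recurred in IP 2 (100%, 88.6 to 100), beside 73.0% of all boundary peaks. A shared bin is enough for this count, and peaks of 1 gene are not independent. Some of the 30 met an IP 2 peak with other ends, such as that of Srrt at 19400700 to 19400800. Of the 11 sense peaks without a boundary, 5 recurred (45.5%, 21.3 to 72.0), beside 46.9% over the list. The 6 sense peaks that did not recur were 3 peaks in 5' UTRs, of Srrm2, Pnn and Arglu1, and 3 wholly coding peaks, 2 of Srrm2 and 1 of Ccdc9. From IP 2, 31 of 48 boundary peaks recurred (64.6%, 50.4 to 76.6), beside 21.7% of all boundary peaks in that list. In 1-bin boundary peaks, exon made up a median of 58% of the bin in IP 1 and 54% in IP 2, beside 56% and 60% for all such peaks. It ranged from 10 to 92% in IP 1 and from 2 to 94% in IP 2. Gene models were not used here, so 5' and 3' splice sites were not told apart.

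Over the 72 recurrent pairs, IP 2 had more tags in 57 (79.2%) with a median ratio of 1.35, beside 76.0% and 1.24 over all 1645 pairs. Tags are not known to be scaled for depth, so a ratio above 1 does not show a change in binding. Ratios differed between genes, with medians of 1.09 for Srrm2, 1.24 for Srrt, 1.29 for Acin1, 1.32 for Ccdc9, 1.42 for Pnn, 1.47 for Son, 1.62 for Arglu1 and 1.93 for Akap8l. Within a gene they also spread, from 0.612 to 1.84 in Srrm2 and from 0.728 to 2.54 in Srrt, so the ranges of neighbouring genes in this order overlap. Both Srrt extremes set a 1-bin antisense peak of IP 1, with 108 or 31 tags, against the same longer IP 2 peak of 78.7. The other Srrt ratios ran from 0.844 to 2.09. Spearman's rho between the lists was 0.667 and Pearson's r 0.666 across the 72 pairs, beside 0.434 and 0.385 over all pairs. These correlations describe positions that share a pair of libraries.

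**Figure D5:**
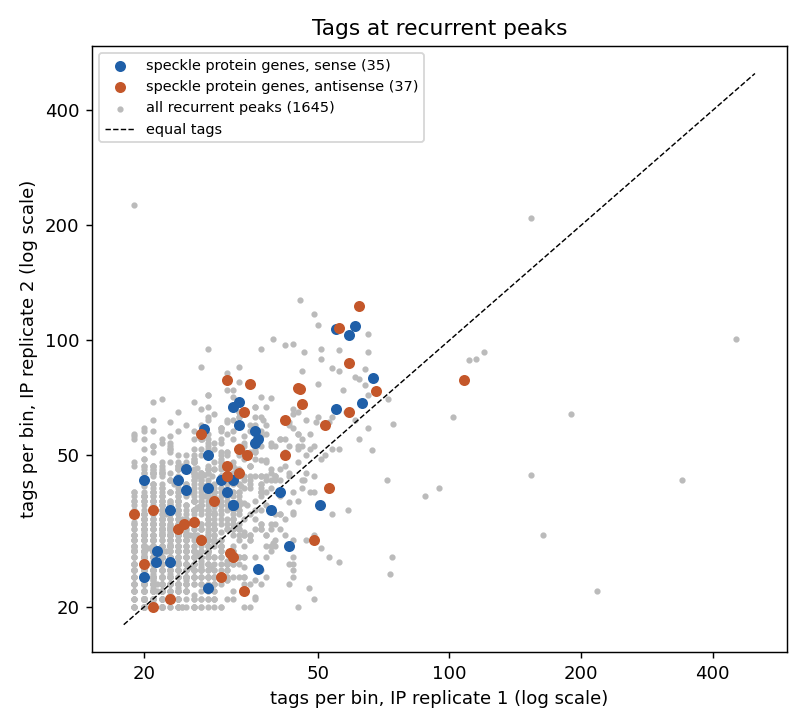
Each point is a recurrent peak, with tags per bin in IP 1 on the horizontal axis and in IP 2 on the vertical axis, both on log scales; blue and orange points are sense and antisense peaks of speckle protein genes, grey points all 1645 recurrent peaks, and the dashed line marks equal tags. Of the 72 speckle gene pairs, 57 lie above the line.

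Peaks without a counterpart were fewer in IP 1. In IP 1 they numbered 14, with a median of 23.5 tags, beside 1051 such peaks with a median of 23 over the list, and 7 of the 14 were in Srrm2. Of the 14, 2 adjoined an IP 2 peak of the same strand without sharing a bin, the antisense peaks of Ccdc9 at 76980800 and of Srrm2 at 12827350, each with 39 tags. In IP 2 they numbered 59, with a median of 28 tags, beside 6463 with a median of 25. Of the 59, 11 in 4 genes exceeded 47 tags (18.6%), beside 8.68% of the 6463. They reached 155 tags in Ccdc9, 134 in Srrm2, 125 in Arglu1 and 53 in Acin1.

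By number of recurrent IP 1 peaks, Srrt stood level with the first genes of the whole list, but not with 1-bin peaks alone or identical ends. The genes outside the set with the most recurrent peaks were the collagen gene Col16a1 (16 of 23 IP 1 peaks), the endocytic adaptor gene Hip1r (16 of 19), the actin filament gene Nexn (16 of 18), the chromatin remodeller gene Srcap (14 of 14) and the cytoskeletal linker gene Macf1 (13 of 19). Smarcc2 and Rbm25 also had 13, and Macf1 was placed before them by its 49 peaks in IP 2. Srrt had 16 of 17, Ccdc9 14 of 16 and Srrm2 10 of 17. With 1-bin peaks alone Srrt had 6 and Ccdc9 10, and Nexn had 15, Col16a1 14, Hip1r 13, Macf1 13 and Srcap 8. With identical ends Srrt had 8 and Ccdc9 11, and Nexn had 16, Col16a1 14, Hip1r 13, Macf1 13 and Srcap 8. At least 5 recurrent peaks were found in 7 of the 10 speckle genes and in 4.28% of all genes with a peak. The median speckle gene with a peak had 9 peaks in IP 1 and 10.5 in IP 2, and the median over all genes with a peak was 2 and 3.

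Partners of these proteins were compared by the same counts, over 52 genes in 4 groups. A recurrent peak was found in 14 of them (26.9%), beside 8 of the 10 speckle genes. Of the 52, 16 had a peak in IP 1 and 29 in IP 2, whereas all 10 speckle genes had a peak in at least 1 list. The share over the lists, 34.1%, counts only genes with a peak, so it is not a like base for the 26.9%. Among genes with a peak in IP 1, a recurrent peak was held by 14 of these 16, by all 8 such speckle genes and by 652 of 922 genes of the list. The 14 were 2 of 8 exon junction complex genes (Rbm8a and Casc3), 2 of 7 cap-binding and SRRT partner genes (Zc3h18 and Zc3h4), 8 of 28 other RS-domain and speckle genes (Thrap3, Bclaf1, Srek1, Rsrc2, Scaf1, Clasrp, Ccdc9b and Akap8) and 2 of 9 RNA export genes (Ddx39b and Nxf1). Clasrp, a partner of the CLK splicing kinases, had 15 peaks in IP 1 and 18 in IP 2, and 12 recurred, the tallest by IP 1 tags with 41 and 43 tags, and the tallest by IP 2 tags with 33 and 85. Akap8, the paralogue of Akap8l, had 8 peaks in each list and all 8 of IP 1 recurred, the tallest with 37 and 32 tags. It lies near Akap8l on chromosome 7, and read sharing between the paralogues was not tested. The tallest recurrent peak had 36 tags in IP 1 and 51 in IP 2 in the helicase gene Ddx39b, 33 and 36 in Rsrc2, 28 and 33 in the export receptor gene Nxf1, and 27 and 28 in Ccdc9b, the paralogue of Ccdc9. Eif4a3 and Magoh of the exon junction complex and Ncbp1 and Ncbp2 of the cap-binding complex, named after their values were seen, had no peak in either list.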

How the data were processed

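Cross-linked RNA from RBM25 IPs of H9C2 cells was sequenced by the submitters. Per the submitters' processing notes, HISAT2 was used with the build mRatBN7.2; how peaks were called, and whether inputs entered, is not given in the sources used here. Per the file headers and values, the deposited tags column is a signal, whole in 1-bin peaks and a mean over bins in longer ones. It is not known to be scaled for depth, and no scaling was applied here. The deposited p-value of each peak was used only to keep the better part of a list, at or below its median. Peaks of the 10 genes were taken by name and compared with all peaks by bins shared on the same strand. A peak is antisense if that class covers most of it. All peak starts lay on the 50-nt grid. Wilson intervals are at 95%. No test was run and no paired fit applied.

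The genes and lists were chosen with earlier results of these data known. Genes outside the set were named by rule: the 5 with the most recurrent peaks (ties by number of IP 2 peaks), and up to 6 partner genes with values, by IP 1 tags; a tie among these partners for the last place went to the higher IP 2 tags. Genome sequence was not used here, and names came from a RefSeq table of assembly GRCr8, without its coordinates. Overlap counting was tested on simulated 1-bin peaks, and overlaps of longer peaks were not part of that test. Software was matplotlib 3.10.9, scipy 1.17.1, pandas 2.3.3, numpy 2.4.6 and Python 3.11.15.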

Additional observations from a re-analysis of the deposited data

How the results depend on the processing

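The number of genes with a recurrent peak stayed within 7 to 8 under every setting tried, 7 where Srrm2 was left out. The recurrent share of IP 1 peaks, 83.7%, was 65.7% with 1-bin peaks alone in both lists, 59.3% with identical start and end, and 54.6% counted from IP 2. It was 81.5% with the better part of each list by p-value, 86.0% with either strand allowed and 89.9% without Srrm2. The mean boundary share of sense peaks over the lists, 72.9%, was 79.1% with the better part of each list, 68.5% with 1-bin peaks alone, 77.9% without Srrm2 and 65.2% where exon and intron each had to cover at least 10% of the peak. The mean of the lists' median tags, 34.25, was 39.5 with the better part and 38.25 with tags multiplied by bins. Antisense and mirrored shares moved by less than the spread between lists. Of 32 recurrent counts of single genes under alternatives, 9 differed by over 1.5 times, in Srrm2, Srrt, Arglu1, Acin1 and Ccdc9. Leaving out each list gave antisense shares of 49.2 to 52.3%, boundary shares of 72.7 to 73.2%, median tags of 32 to 36.5 and mirrored shares of 65.1 to 84.6%. No paired analysis was possible because the peak lists analysed are of IP samples alone and no result comes from a test. Library depth is unknown, so a missing peak does not show that signal was missing.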
